A study of Mus musculus with 18 samples.

Results

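Whether the loss of Zeb1 in myeloid cells altered the response of inflamed peritoneal macrophages to Metformin was examined here as a genotype by Metformin interaction. The interaction is a difference of 2 differences: the change from LPS to Metformin + LPS in Zeb1 ∆M macrophages minus the same change in Zeb1 WT macrophages. It was taken from the 12 libraries, 3 in each of 4 groups, that the labels assign to a single dose of LPS with or without Metformin, out of 18 libraries in the series. The remaining 6 libraries received 2 doses of LPS and entered only alternative fits.

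All mice were C57BL/6 and carried loxP-flanked Zeb1 alleles (Zeb1f/f), so that the controls, called Zeb1 WT, share the floxed locus. Zeb1 ∆M mice carried the LysM Cre transgene in addition, in which Cre is expressed from the endogenous Lyz2 locus of myeloid cells, and Lyz2 is therefore itself touched by the construct. Macrophages came from peritoneal lavage, were sorted as F4/80+ CD11b+ cells and were pooled from 2 to 3 mice per library. In the LPS groups the mice received one dose of LPS, and in the Metformin + LPS groups they received Metformin before that dose. Age, sex, doses and times for these libraries were not given in the sources used here.

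LPS is the bacterial cell wall component that macrophages sense through TLR4. Metformin is an antidiabetic drug that inhibits complex I of the mitochondrial respiratory chain, activates the energy sensor AMPK and restrains mTORC1, and it lowers several inflammatory readouts of macrophages. ZEB1 is a zinc finger transcription factor best known as a repressor that binds E-box motifs, above all the sequence CACCTG, and for its part in the epithelial-to-mesenchymal transition.

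The targeted gene was examined first. Zeb1 was at 5.30, 5.54 and 5.97 CPM in Zeb1 WT LPS and at 10.5, 10.5 and 10.02 CPM in Zeb1 WT Metformin + LPS, against 1.89, 2.47 and 1.14 CPM in Zeb1 ∆M LPS and 3.39, 3.87 and 3.17 CPM in Zeb1 ∆M Metformin + LPS, where CPM is the count scaled to the library size with TMM composition factors. Each Zeb1 ∆M library lay below every Zeb1 WT library of its own treatment. The genotype difference was -1.61 on the log2 scale with LPS (adjusted p = 0.0115) and -1.57 with Metformin + LPS (adjusted p = 0.00522), and Zeb1 itself had an interaction of 0.04 ± 0.39 (adjusted p = 0.983). Here and below a value after ± is a standard error unless marked SD. It was computed as the absolute log2 value divided by the square root of its edgeR F statistic. Adjusted p-values come from edgeR over all 12639 genes tested.

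The genes of the proteins used in the sort were abundant in every group. Itgam, which encodes CD11b, averaged 694 CPM in Zeb1 WT LPS, 562 CPM in Zeb1 ∆M LPS, 1344 CPM in Zeb1 WT Metformin + LPS and 1701 CPM in Zeb1 ∆M Metformin + LPS, with an interaction of 0.65 ± 0.35 (adjusted p = 0.448). Adgre1, which encodes F4/80, averaged 1828 CPM in Zeb1 WT LPS, 1860.1 CPM in Zeb1 ∆M LPS, 3048 CPM in Zeb1 WT Metformin + LPS and 2337 CPM in Zeb1 ∆M Metformin + LPS, and its interaction was -0.41 ± 0.32 (adjusted p = 0.627). Libraries held between 14056454 and 30570439 counts. The TMM factors lay between 0.547 and 0.871 in the Zeb1 WT Metformin + LPS libraries and between 1.04 and 1.30 in the other 9, and the share of counts on mitochondrial transcripts was 2.05% to 2.79% in that group against 0.529% to 1.91% elsewhere. Ribosomal RNA took 0.373% to 1.26% of the counts in the LPS libraries and 2.06% to 6.73% in the Metformin + LPS libraries. Zeb1 ∆M Metformin + LPS replicate 3 stood apart from its group, with 2.06% ribosomal RNA against 6.27% and 6.73% and with 18290 genes detected against 16080 and 15782. The LPS libraries and the Metformin + LPS libraries carry sample codes of different series, so that the Metformin change within a genotype cannot be told apart from the code series. A difference between the series that adds the same amount in both genotypes cancels in the interaction.

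Across 12639 genes, 44 were called in the interaction (0.348% of the genes tested), of which 28 were higher (0.222%) and 16 lower (0.127%). Without adjustment 1761 genes (13.9%) had a p under 0.05. Higher means that the change with Metformin was more positive in Zeb1 ∆M, and it need not be an increase in either genotype. The interactions of the 28 genes ran from 1.17 to 3.20 with a median of 1.97 on the log2 scale, and those of the 16 genes from -5.03 to -1.23 with a median of -2.11, against a median of -0.03 over all genes. The split into higher and lower depends on the scaling of the libraries. With library totals alone, an alternative chosen after seeing the data, the median of all genes moved from -0.03 to 0.47 and 164 genes were called higher and 16 lower. All 28 higher genes were still called at that scaling, as were 7 of the 16 lower genes. The list medians given below move with the scaling as well and are to be read against the median of all genes. DESeq2 called 344 of the 11791 genes that it tested, 164 higher and 180 lower. Counts of list members called by DESeq2 are to be read against that share.

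Most of the 28 higher genes moved in opposite directions in the genotypes. Metformin + LPS was below LPS in Zeb1 WT and above it in Zeb1 ∆M for 19 of the 28 genes, while 5 were above LPS in both genotypes and 4 below it in both. Among all 12639 genes these counts were 1477, 4435 and 5065. Tested within Zeb1 WT, 17 of the 28 fell with Metformin (12.8% of all genes fell) and 1 rose (13.7% of all genes). Within Zeb1 ∆M, 18 rose (12.9% of all genes). The median change of the 28 was -0.85 in Zeb1 WT and 0.93 in Zeb1 ∆M. Compared between genotypes, 15 of the 28 were lower in Zeb1 ∆M under LPS alone (1.53% of all genes) and 14 were higher in Zeb1 ∆M under Metformin + LPS (1.3% of all genes). For 27 of the 28 the genotype difference changed sign between the treatments, as it did for 5363 of all 12639 genes. Over all genes, 1.84% differed by genotype under LPS alone and 6.26% under Metformin + LPS, and 26.5% changed with Metformin in Zeb1 WT and 27% in Zeb1 ∆M. These component counts use the samples that selected the 28 genes and describe them only.

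For the 16 lower genes the picture was the opposite one, and it rested more on the Metformin + LPS groups. Metformin + LPS was above LPS in Zeb1 WT and below it in Zeb1 ∆M for 9 of the 16, with 4 above LPS in both genotypes and 3 below it in both. Among all 12639 genes these counts were 1661, 4435 and 5065. Under Metformin + LPS 12 of the 16 were lower in Zeb1 ∆M (4.96% of all genes), whereas under LPS alone 4 were higher in Zeb1 ∆M (0.309% of all genes) and 1 was lower. The median change with Metformin of the 16 genes was 1.17 in Zeb1 WT and -0.54 in Zeb1 ∆M. Over all genes the change with Metformin was of similar size in both genotypes, with a median absolute log2 change of 0.595 in Zeb1 WT and 0.588 in Zeb1 ∆M, and the genotypes' changes had a Pearson r of 0.594 and a Spearman rho of 0.63 across genes. Genes are not independent replicates, and both changes hold the step between code series, so that these coefficients are descriptions.

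**Figure D1:**
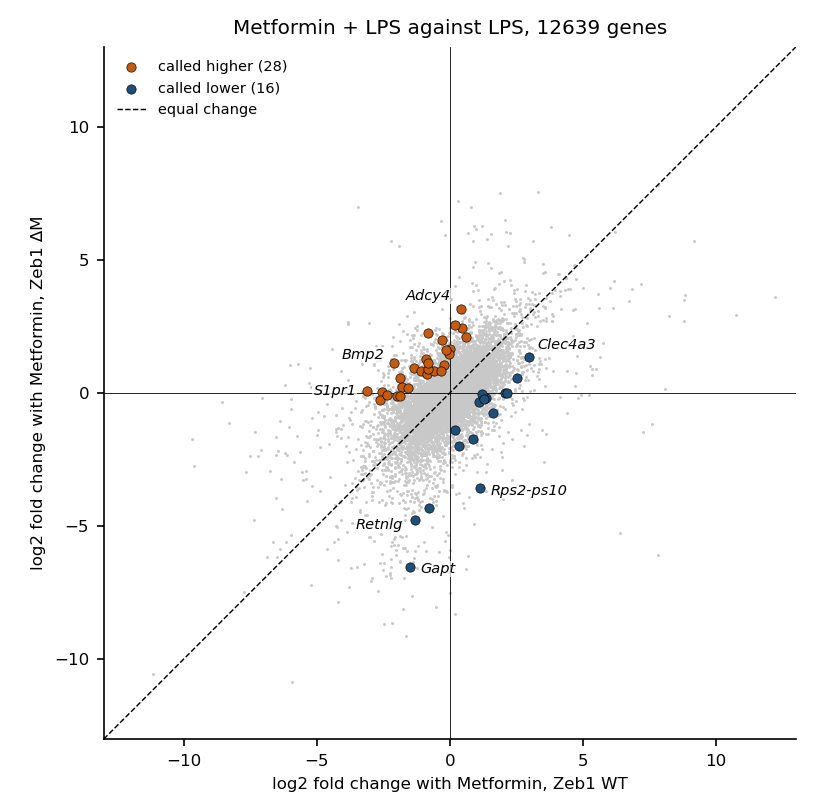
Log2 fold change of Metformin + LPS against LPS in Zeb1 WT (horizontal axis) and in Zeb1 ∆M (vertical axis) for 12639 genes, 1 grey point each, with the 28 genes called higher and the 16 called lower in colour and the line of equal change dashed. Most genes lie around the dashed line, S1pr1 and Bmp2 lie left of it with a fall in Zeb1 WT, and Gapt and Rps2-ps10 lie under it with a fall in Zeb1 ∆M.

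**Figure D2:**
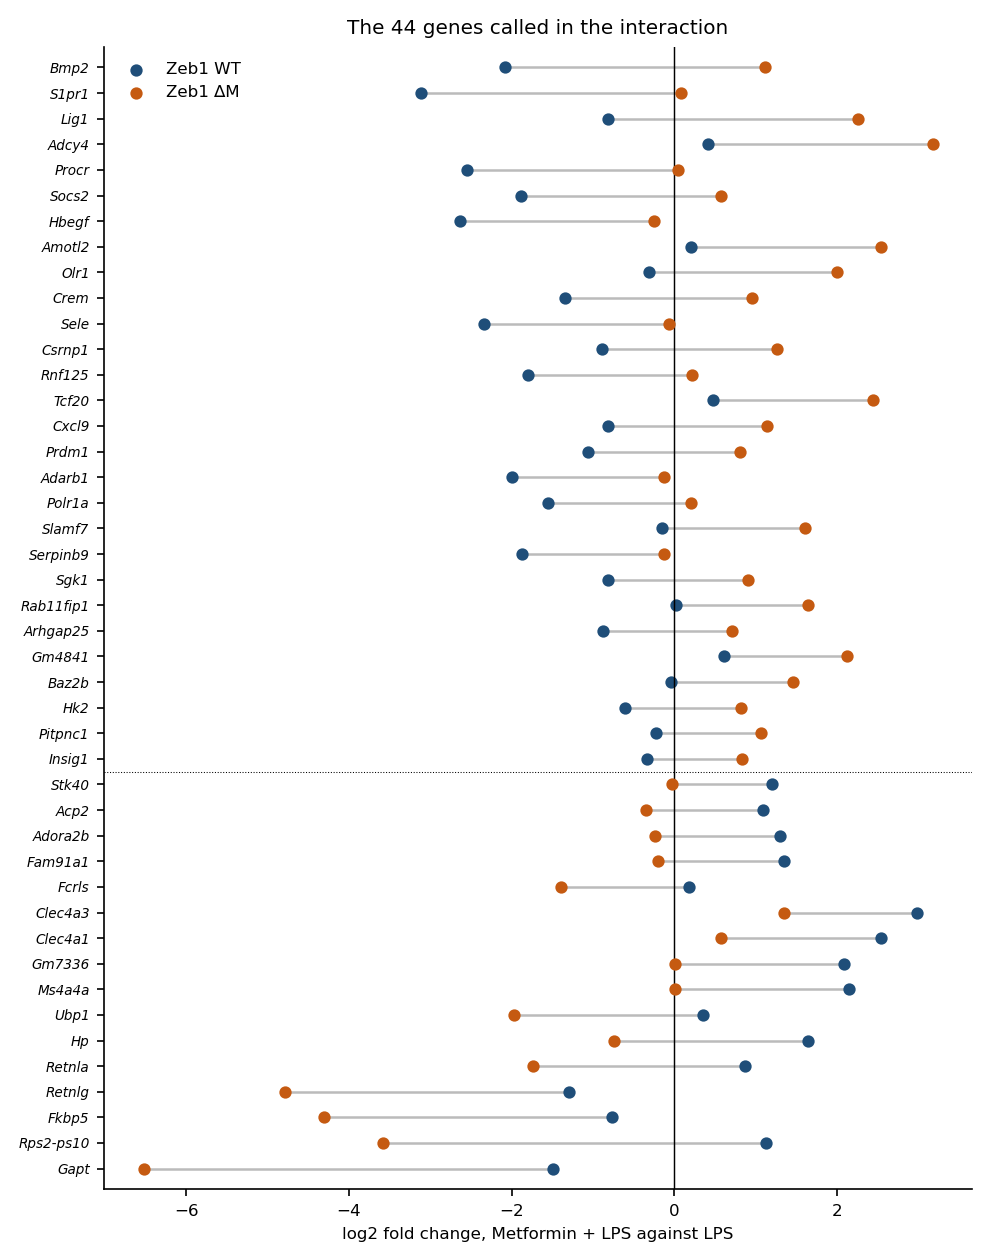
Change with Metformin (log2 fold change, horizontal axis) in Zeb1 WT (blue) and in Zeb1 ∆M (orange) for each of the 44 called genes, joined by a line whose length is the interaction, with higher genes above the dotted line. For 19 of the 28 higher genes the blue point is below 0 and the orange point above 0, and for 9 of the 16 lower genes the order is the reverse.

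Among the higher genes, S1pr1, Procr, Csrnp1 and Crem stood out in that they were called in at least 11 of the 12 fits that left out 1 library each. Csrnp1 was not called with all 18 libraries in the fit, and none of these genes in a test against a log2 change of 1. S1pr1, the receptor for sphingosine 1-phosphate, lies at chr3:115710433-115715072 on the minus strand (GRCm38). S1pr1 was at 24.3, 33.9 and 35.1 CPM in Zeb1 WT LPS and at 2.46, 3.91 and 4.28 CPM in Zeb1 WT Metformin + LPS, against 22.5, 10.6 and 18.7 CPM in Zeb1 ∆M LPS and 18.001, 14.5 and 22.2 CPM in Zeb1 ∆M Metformin + LPS. The Zeb1 WT Metformin + LPS libraries were below the other 9, and in Zeb1 ∆M the treatments overlapped. The change with Metformin was -3.11 in Zeb1 WT (adjusted p = 2.91e-05) and 0.08 in Zeb1 ∆M (adjusted p = 0.859), which gave an interaction of 3.19 ± 0.41 (adjusted p = 0.0076).

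Procr, the endothelial protein C receptor, lies at chr2:155751117-155755471 on the plus strand and followed the same course in Zeb1 WT. Procr was at 82.3, 88.2 and 84.6 CPM in Zeb1 WT LPS and at 16.1, 14.4 and 13.2 CPM in Zeb1 WT Metformin + LPS, against 28.2, 16.3 and 38.3 CPM in Zeb1 ∆M LPS and 30.1, 24.3 and 31.1 CPM in Zeb1 ∆M Metformin + LPS. Both Zeb1 ∆M groups overlapped each other and lay between the Zeb1 WT groups. Metformin changed Procr by -2.55 in Zeb1 WT (adjusted p = 2.88e-05) and by 0.05 in Zeb1 ∆M (adjusted p = 0.906). The interaction of Procr was 2.60 ± 0.34 (adjusted p = 0.0076), with a genotype difference of -1.62 under LPS that turned into 0.97 under Metformin + LPS. S1pr1 and Procr are also expressed by endothelial cells. Of 2 genes known from that cell type, the second chosen after its values were seen, Pecam1 was at 6.82 to 8.83 CPM in Zeb1 WT LPS, 3.78 to 4.66 CPM in Zeb1 WT Metformin + LPS, 3.60 to 6.45 CPM in Zeb1 ∆M LPS and 1.18 to 4.42 CPM in Zeb1 ∆M Metformin + LPS, and its interaction was -0.03 ± 0.54 (adjusted p = 0.99). Sele, the endothelial adhesion molecule E-selectin, was at 7.86 to 10.8 CPM in Zeb1 WT LPS, 1.11 to 2.33 CPM in Zeb1 WT Metformin + LPS, 4.57 to 5.82 CPM in Zeb1 ∆M LPS and 3.87 to 5.67 CPM in Zeb1 ∆M Metformin + LPS, and was itself called higher with an interaction of 2.28 ± 0.43 (adjusted p = 0.0377). Sele fell in Zeb1 WT by 2.35 on the log2 scale with Metformin (adjusted p = 0.000181), as S1pr1 and Procr did, and the part of endothelial RNA in S1pr1 and Procr was not tested.

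Csrnp1, a nuclear protein with a cysteine- and serine-rich domain that activates transcription, lies at chr9:119971163-119984658 on the minus strand. Csrnp1 was at 60.8, 79.6 and 67.6 CPM in Zeb1 WT LPS and at 29.3, 42.1 and 41.0 CPM in Zeb1 WT Metformin + LPS, against 19.99, 27.3 and 28.1 CPM in Zeb1 ∆M LPS and 61.7, 58.7 and 60.7 CPM in Zeb1 ∆M Metformin + LPS. No Zeb1 ∆M library overlapped the Zeb1 WT libraries of its treatment, and the order of the genotypes was inverted between the treatments. Csrnp1 fell by 0.88 on the log2 scale with Metformin in Zeb1 WT (adjusted p = 0.00359) and rose by 1.26 in Zeb1 ∆M (adjusted p = 0.000387). The interaction of Csrnp1 was 2.15 ± 0.27 (adjusted p = 0.0076).

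Crem, which encodes the cAMP-responsive element modulator, behaved in the same way. Crem was at 120.1, 122 and 102 CPM in Zeb1 WT LPS and at 46.3, 43.8 and 44.6 CPM in Zeb1 WT Metformin + LPS, against 54.3, 33.8 and 59.2 CPM in Zeb1 ∆M LPS and 80.5, 76.6 and 128 CPM in Zeb1 ∆M Metformin + LPS. The genotypes did not overlap within either treatment, with Zeb1 ∆M below Zeb1 WT under LPS and above it under Metformin + LPS. The interaction of Crem was 2.30 ± 0.33 (adjusted p = 0.0127), made of a change of -1.35 in Zeb1 WT (adjusted p = 0.000853) and 0.95 in Zeb1 ∆M (adjusted p = 0.00745). Its call was lost in 1 of the 12 fits, without Zeb1 WT Metformin + LPS replicate 1 (adjusted p = 0.0551).

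**Figure D3:**
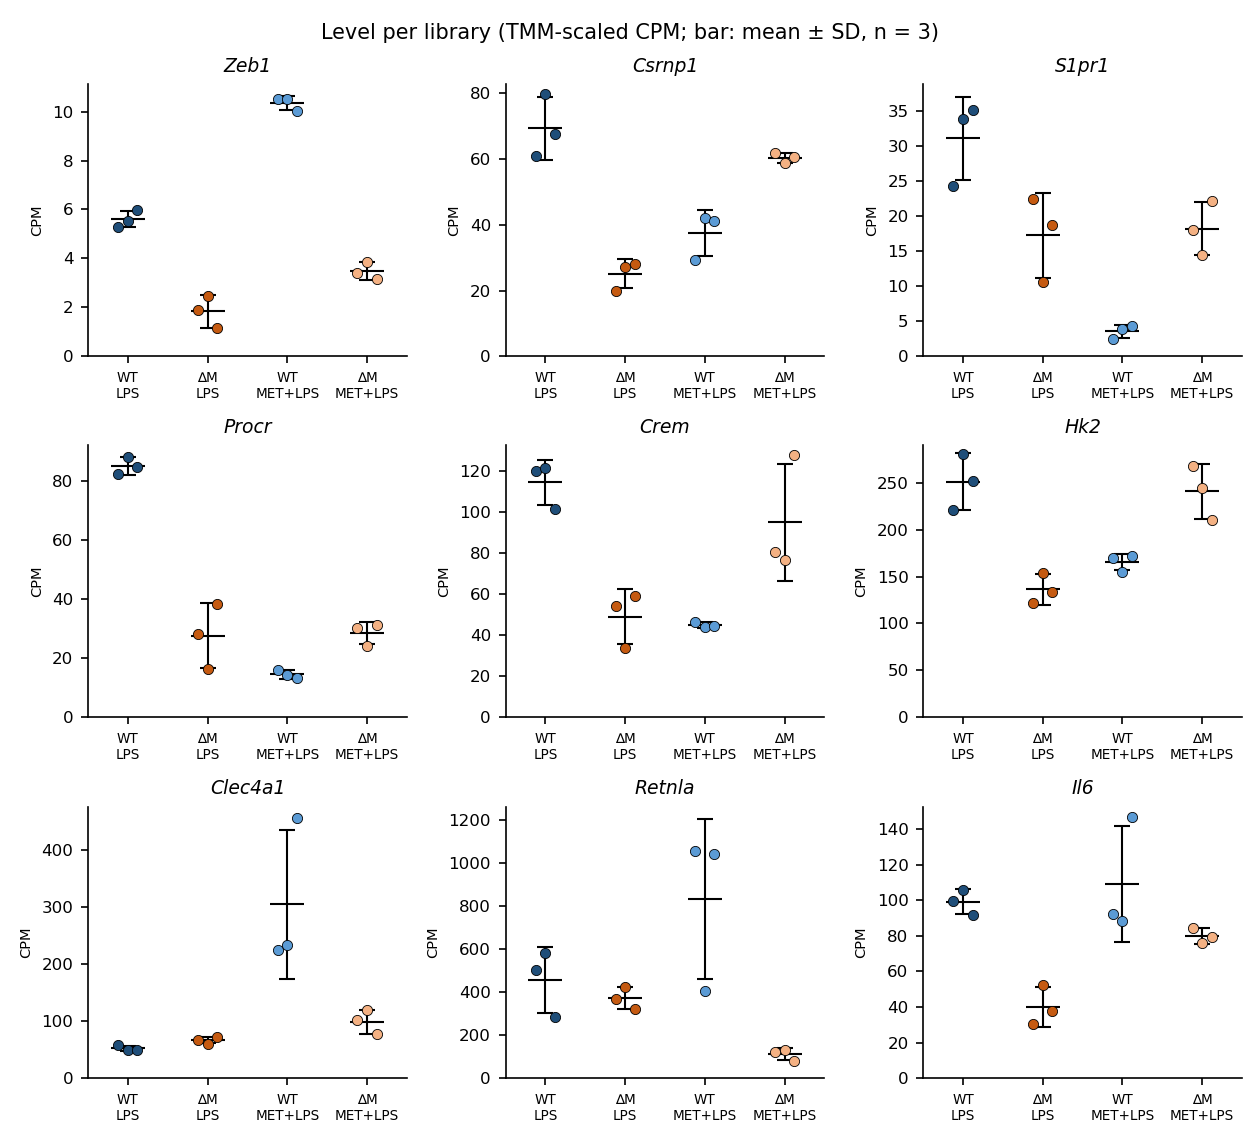
Level in CPM (vertical axes, starting at 0) of 9 genes in each library of the 4 groups, with 1 point per library and bars for the mean ± SD of 3 libraries. Zeb1 is low in both Zeb1 ∆M groups, S1pr1 and Procr fall in Zeb1 WT, Csrnp1, Crem and Hk2 cross between the genotypes, and Clec4a1 and Retnla differ by genotype under Metformin + LPS, while the interactions of Zeb1 and Il6 were not called.

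Of the other genes in transcription and chromatin, Prdm1 encodes the transcriptional repressor Blimp-1. Prdm1 was at 28.5, 30.1 and 23.7 CPM in Zeb1 WT LPS and at 10.97, 15.5 and 12.7 CPM in Zeb1 WT Metformin + LPS, against 7.99, 10.7 and 11.5 CPM in Zeb1 ∆M LPS and 19.6, 18.6 and 14.9 CPM in Zeb1 ∆M Metformin + LPS. Under LPS the genotypes did not overlap and under Metformin + LPS they did, and the interaction was 1.88 ± 0.30 (adjusted p = 0.0261). Baz2b, a bromodomain protein, lay at 15.7 to 17.9 CPM in the Zeb1 ∆M LPS libraries and at 32.1 to 53.7 CPM in all others, with an interaction of 1.50 ± 0.26 (adjusted p = 0.0278). Tcf20, a transcriptional coregulator, had levels of 4.87 to 8.56 CPM in Zeb1 WT LPS, 7.67 to 10.7 CPM in Zeb1 WT Metformin + LPS, 2.87 to 3.39 CPM in Zeb1 ∆M LPS and 14.9 to 18.6 CPM in Zeb1 ∆M Metformin + LPS. Its interaction was 1.97 ± 0.35 (adjusted p = 0.0312), and the Zeb1 ∆M group moved from the lowest to the highest of the 4. Polr1a, the large subunit of RNA polymerase I, was instead set apart by Zeb1 WT, with 3.15 to 4.21 CPM under Metformin + LPS and 8.36 to 13.9 CPM in the other groups. The interaction of Polr1a was 1.76 ± 0.35 (adjusted p = 0.0484).

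Secreted ligands were among the higher genes. Hbegf is a growth factor that binds the EGF receptor. Hbegf was at 67.6, 110.0 and 66.1 CPM in Zeb1 WT LPS and at 12.7, 10.8 and 15.7 CPM in Zeb1 WT Metformin + LPS, against 30.5, 20.1 and 30.1 CPM in Zeb1 ∆M LPS and 23.4, 13.6 and 30.9 CPM in Zeb1 ∆M Metformin + LPS. Hbegf was thus highest in Zeb1 WT LPS, and the Zeb1 ∆M treatments overlapped. Metformin changed Hbegf by -2.64 in Zeb1 WT (adjusted p = 5.83e-05) and by -0.25 in Zeb1 ∆M (adjusted p = 0.554), with an interaction of 2.39 ± 0.41 (adjusted p = 0.0278). Cxcl9, an interferon-induced T cell chemokine, was at 55.1 to 65.1 CPM in Zeb1 WT LPS, 24.6 to 43.5 CPM in Zeb1 WT Metformin + LPS, 20.2 to 34.6 CPM in Zeb1 ∆M LPS and 42.4 to 90.3 CPM in Zeb1 ∆M Metformin + LPS, and its interaction was 1.97 ± 0.39 (adjusted p = 0.0484).

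In metabolism, Hk2 encodes hexokinase 2, which phosphorylates glucose at the entry of glycolysis and is induced by LPS. Hk2 was at 220.4, 281 and 252 CPM in Zeb1 WT LPS and at 169, 155 and 171 CPM in Zeb1 WT Metformin + LPS, against 121, 153 and 134 CPM in Zeb1 ∆M LPS and 267, 245 and 209.8 CPM in Zeb1 ∆M Metformin + LPS. The ranges of the genotypes did not meet within either treatment, and their order was inverted. Hk2 had an interaction of 1.42 ± 0.24 (adjusted p = 0.0278), with a change of -0.60 in Zeb1 WT (adjusted p = 0.0166) and 0.82 in Zeb1 ∆M (adjusted p = 0.00302), and its call held in 7 of the 12 leave-one-out fits. Insig1, an inhibitor of sterol synthesis, was at 66.1 to 80.7 CPM in Zeb1 ∆M Metformin + LPS and at 37.3 to 60.8 CPM in the other groups. The interaction of Insig1 was 1.17 ± 0.23 (adjusted p = 0.0484).

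Several higher genes act in signalling and trafficking. Sgk1, a kinase downstream of PI3K, was at 70.2 to 112 CPM in Zeb1 WT LPS, 46.0 to 55.3 CPM in Zeb1 WT Metformin + LPS, 22.6 to 40.0 CPM in Zeb1 ∆M LPS and 57.5 to 66.1 CPM in Zeb1 ∆M Metformin + LPS. The interaction of Sgk1 was 1.72 ± 0.31 (adjusted p = 0.0327). Adcy4, an adenylate cyclase that makes cAMP, was at 35.6 to 39.5 CPM in Zeb1 ∆M Metformin + LPS against 2.84 to 11.2 CPM in the other 9 libraries. The interaction of Adcy4 was 2.76 ± 0.50 (adjusted p = 0.0333). For Sgk1 the low group was Zeb1 ∆M LPS, for Adcy4 the high group was Zeb1 ∆M Metformin + LPS. Rab11fip1, a Rab11-binding protein of recycling endosomes, was at 27.3 to 33.1 CPM in Zeb1 ∆M LPS and at 58.0 to 106 CPM elsewhere. The interaction of Rab11fip1 was 1.62 ± 0.25 (adjusted p = 0.0261). Arhgap25, a GTPase-activating protein, was at 29.5 to 41.1 CPM in Zeb1 WT LPS, 17.4 to 21.0 CPM in Zeb1 WT Metformin + LPS, 19.1 to 24.8 CPM in Zeb1 ∆M LPS and 29.5 to 38.6 CPM in Zeb1 ∆M Metformin + LPS. The interaction of Arhgap25 was 1.58 ± 0.26 (adjusted p = 0.0278). Arhgap25 thus crossed between the genotypes, with no overlap within either treatment.

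The other signalling genes were marked by Zeb1 WT. Rnf125, a ubiquitin ligase, was at 25.5 to 27.3 CPM in Zeb1 WT LPS, 6.28 to 9.64 CPM in Zeb1 WT Metformin + LPS and 8.24 to 16.1 CPM in the 6 Zeb1 ∆M libraries. The interaction of Rnf125 was 2.01 ± 0.35 (adjusted p = 0.0278). Socs2, an inhibitor of cytokine receptor signalling, was at 8.23 to 15.1 CPM in Zeb1 WT LPS and at 2.51 to 6.52 CPM in the other groups. The interaction of Socs2 was 2.47 ± 0.48 (adjusted p = 0.0484). Adarb1, an adenosine deaminase that edits RNA, was at 12.2 to 12.7 CPM in Zeb1 WT Metformin + LPS and at 27.7 to 59.8 CPM in the other groups. The interaction of Adarb1 was 1.87 ± 0.32 (adjusted p = 0.0278). Rnf125 and Socs2 were highest in Zeb1 WT LPS, and Adarb1 was lowest in Zeb1 WT Metformin + LPS.

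Since ZEB1 binds CACCTG, the promoters of the called genes were searched for these letters and for their reverse complement CAGGTG. The windows run from 250 bases before to 50 bases after a start (RefSeq, GRCm38.p6), 300 bases each, and 22 of the 30 genes searched had at least 1 window. The 30 genes are the 15 higher and the 15 lower genes of the naming rule given with the methods. The letters were found in 7 of 33 windows (21.2%), which belonged to 3 of the 10 higher genes and 3 of the 12 lower genes with a window, and in 6640 of all 32851 windows of that length (20.2%). The windows given here are those of Csrnp1, Prdm1 and Procr, 3 higher genes whose genotype difference changed sign between the treatments, and of Fcrls as a lower gene with the letters. Capitals mark the letters searched, and each sequence is written 5′ to 3′ along the strand of its gene. The Csrnp1 window, chr9:119982974-119983273 on the minus strand, lies inside the gene at 1 of its 4 starts in the RefSeq table and holds the letters at -237 and -48 relative to that start. The Prdm1 window, chr10:44458699-44458998 on the minus strand, lies inside the gene and holds them at -87. The Procr window, chr2:155750967-155751266 on the plus strand, holds none. The Fcrls window, chr3:87263475-87263774 on the minus strand, holds them at 13 bases after the start.
Csrnp1: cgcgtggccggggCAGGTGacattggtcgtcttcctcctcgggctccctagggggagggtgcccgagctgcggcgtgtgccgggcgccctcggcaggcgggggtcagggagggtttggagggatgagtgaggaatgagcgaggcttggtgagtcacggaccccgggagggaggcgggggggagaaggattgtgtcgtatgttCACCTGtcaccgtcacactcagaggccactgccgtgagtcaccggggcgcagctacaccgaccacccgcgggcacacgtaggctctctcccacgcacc
Prdm1: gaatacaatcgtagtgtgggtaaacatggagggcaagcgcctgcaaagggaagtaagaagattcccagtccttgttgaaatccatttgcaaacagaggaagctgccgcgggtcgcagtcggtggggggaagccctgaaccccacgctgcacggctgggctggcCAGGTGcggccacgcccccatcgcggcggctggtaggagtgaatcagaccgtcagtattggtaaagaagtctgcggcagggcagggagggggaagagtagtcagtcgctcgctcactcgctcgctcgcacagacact
Procr: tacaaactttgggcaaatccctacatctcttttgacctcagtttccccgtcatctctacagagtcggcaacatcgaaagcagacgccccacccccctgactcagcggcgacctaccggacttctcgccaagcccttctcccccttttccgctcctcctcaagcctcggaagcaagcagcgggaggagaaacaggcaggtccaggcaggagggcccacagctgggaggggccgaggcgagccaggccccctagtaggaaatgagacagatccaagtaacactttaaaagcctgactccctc
Fcrls: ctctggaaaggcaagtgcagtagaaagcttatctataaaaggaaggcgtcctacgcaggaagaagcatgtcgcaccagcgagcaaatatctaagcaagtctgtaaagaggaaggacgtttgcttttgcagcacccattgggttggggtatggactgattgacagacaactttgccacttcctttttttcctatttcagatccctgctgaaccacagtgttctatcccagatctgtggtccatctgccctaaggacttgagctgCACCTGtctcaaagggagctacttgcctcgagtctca

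A match to these letters is not a binding site, and its absence says only that the letters are not in that window. S1pr1, Crem, Rps2-ps10, Rab11fip1, Hp, Rnf125, Hbegf and Fam91a1 had no window.

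Of the lower genes, 5 encode surface receptors, 4 of them known from myeloid cells. Clec4a1 and Clec4a3 encode C-type lectin receptors and are neighbours on the plus strand of chromosome 6, at 122921848-122934619 and 122952515-122969875. Clec4a1 was at 58.2, 49.6 and 49.4 CPM in Zeb1 WT LPS and at 225, 233 and 455 CPM in Zeb1 WT Metformin + LPS, against 67.7, 60.7 and 71.7 CPM in Zeb1 ∆M LPS and 101, 119 and 77.1 CPM in Zeb1 ∆M Metformin + LPS. Clec4a3 was at 20.8, 16.8 and 15.7 CPM in Zeb1 WT LPS and at 139, 106 and 179 CPM in Zeb1 WT Metformin + LPS, against 20.3, 16.3 and 16.5 CPM in Zeb1 ∆M LPS and 43.3, 51.0 and 40.5 CPM in Zeb1 ∆M Metformin + LPS. The genotype difference under LPS was 0.35 for Clec4a1 (adjusted p = 0.586) and -0.00 for Clec4a3 (adjusted p = 0.996). Under Metformin + LPS each Zeb1 WT library was above every Zeb1 ∆M library for both genes. Clec4a1 changed with Metformin by 2.54 in Zeb1 WT (adjusted p = 3.51e-05) and by 0.57 in Zeb1 ∆M (adjusted p = 0.102). The interaction of Clec4a1 was -1.97 ± 0.36 (adjusted p = 0.0327). Clec4a3 rose in both, by 2.99 and 1.34, with an interaction of -1.64 ± 0.29 (adjusted p = 0.0297). The Clec4a genes are near-identical copies in part, so that the division of reads between them is uncertain.

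Of the other receptors, Ms4a4a, a tetraspan protein of alternatively activated macrophages whose family also holds close copies, was at 45.1 to 80.4 CPM in Zeb1 WT LPS, 172 to 376 CPM in Zeb1 WT Metformin + LPS, 47.3 to 72.3 CPM in Zeb1 ∆M LPS and 50.4 to 61.6 CPM in Zeb1 ∆M Metformin + LPS. The interaction of Ms4a4a was -2.14 ± 0.42 (adjusted p = 0.0484). Adora2b, a receptor for adenosine, was at 159 to 181 CPM in Zeb1 WT LPS, 308 to 579 CPM in Zeb1 WT Metformin + LPS, 208 to 255 CPM in Zeb1 ∆M LPS and 186 to 200.2 CPM in Zeb1 ∆M Metformin + LPS. The interaction of Adora2b was -1.53 ± 0.31 (adjusted p = 0.0484). Both had one group, Zeb1 WT Metformin + LPS, above the rest. Fcrls, a scavenger receptor related to Fc receptors, was at 11.5 to 16.98 CPM in Zeb1 ∆M Metformin + LPS and at 26.7 to 55.9 CPM in the other 9 libraries. The interaction of Fcrls was -1.58 ± 0.32 (adjusted p = 0.0484).

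The secreted proteins among the lower genes were Retnla, Retnlg and Hp. Retnla encodes RELMα, a product of alternatively activated and monocyte-derived macrophages, and Retnlg, its neighbour on chromosome 16, a related protein of neutrophils. Retnla was at 502, 583 and 286 CPM in Zeb1 WT LPS and at 1056, 405 and 1044 CPM in Zeb1 WT Metformin + LPS, against 369.8, 427 and 322 CPM in Zeb1 ∆M LPS and 123, 133 and 79.4 CPM in Zeb1 ∆M Metformin + LPS. The 3 Zeb1 ∆M Metformin + LPS libraries lay below the other 9, and the Zeb1 WT Metformin + LPS libraries were spread from 405 to 1056 CPM. The change of Retnla with Metformin was 0.87 in Zeb1 WT (adjusted p = 0.072) and -1.74 in Zeb1 ∆M (adjusted p = 0.0024). The interaction of Retnla was -2.61 ± 0.48 (adjusted p = 0.0359). Retnlg was at 40.6, 40.7 and 36.8 CPM in Zeb1 WT LPS and at 23.0, 11.3 and 13.9 CPM in Zeb1 WT Metformin + LPS, against 5.06, 9.12 and 10.5 CPM in Zeb1 ∆M LPS and 0, 0.298 and 0.572 CPM in Zeb1 ∆M Metformin + LPS. Retnlg fell in both genotypes, by 1.30 in Zeb1 WT and by 4.79 in Zeb1 ∆M on the log2 scale, where the last group held 0, 7 and 15 counts. The interaction of Retnlg was -3.49 ± 0.69 (adjusted p = 0.0484). Hp, the haemoglobin-binding protein haptoglobin, was at 435 to 692 CPM in Zeb1 WT LPS, 1206 to 2069 CPM in Zeb1 WT Metformin + LPS, 681 to 1050.2 CPM in Zeb1 ∆M LPS and 413 to 685 CPM in Zeb1 ∆M Metformin + LPS. The interaction of Hp was -2.38 ± 0.39 (adjusted p = 0.0278).

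Genes that act inside the cell made up the rest. Acp2, a lysosomal acid phosphatase, was at 34.8 to 42.1 CPM in Zeb1 WT LPS, 70.0 to 94.3 CPM in Zeb1 WT Metformin + LPS, 52.5 to 69.7 CPM in Zeb1 ∆M LPS and 45.4 to 51.4 CPM in Zeb1 ∆M Metformin + LPS. The interaction of Acp2 was -1.43 ± 0.24 (adjusted p = 0.0278). Fam91a1, a trafficking adaptor of the Golgi, was at 29.1 to 46.3 CPM in Zeb1 WT LPS and at 77.7 to 114 CPM in the other groups. The interaction of Fam91a1 was -1.54 ± 0.27 (adjusted p = 0.0278). Stk40, a kinase-like protein, was likewise at 23.9 to 32.1 CPM in Zeb1 WT LPS against 46.8 to 66.8 CPM elsewhere. The interaction of Stk40 was -1.23 ± 0.24 (adjusted p = 0.0484). For these 2 genes the difference lay in Zeb1 WT LPS, which was below the other groups. Ubp1, a transcription factor, was at 6.26 to 13.5 CPM in Zeb1 WT LPS, 9.40 to 13.8 CPM in Zeb1 WT Metformin + LPS, 20.7 to 25.4 CPM in Zeb1 ∆M LPS and 4.001 to 7.55 CPM in Zeb1 ∆M Metformin + LPS. The interaction of Ubp1 was -2.33 ± 0.42 (adjusted p = 0.0312). Fkbp5, a co-chaperone of the glucocorticoid receptor, was at 3.57 to 9.19 CPM in Zeb1 WT LPS, 1.70 to 5.09 CPM in Zeb1 WT Metformin + LPS, 7.86 to 24.9 CPM in Zeb1 ∆M LPS and 0.426 to 0.953 CPM in Zeb1 ∆M Metformin + LPS. The interaction of Fkbp5 was -3.54 ± 0.71 (adjusted p = 0.0484). The lowest library of both genes was in Zeb1 ∆M Metformin + LPS.

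Among the 44 called genes the interaction largest in size was that of Gapt, an adaptor that binds GRB2. Gapt was at 41.1, 57.1 and 47.9 CPM in Zeb1 WT LPS and at 17.4, 16.5 and 17.9 CPM in Zeb1 WT Metformin + LPS, against 6.89, 74.7 and 38.2 CPM in Zeb1 ∆M LPS and 0.163, 0.468 and 0.648 CPM in Zeb1 ∆M Metformin + LPS. The Zeb1 ∆M Metformin + LPS libraries held 4, 11 and 17 counts of Gapt, and the Zeb1 ∆M LPS libraries were themselves spread from 6.89 to 74.7 CPM. Its interaction was -5.03 ± 0.86 (adjusted p = 0.0278). Rps2-ps10, a pseudogene of a ribosomal protein whose reads cannot be told from those of near-identical copies, was at 3.36 to 21.8 CPM in Zeb1 WT LPS, 15.3 to 29.2 CPM in Zeb1 WT Metformin + LPS, 77.0 to 117 CPM in Zeb1 ∆M LPS and 6.30 to 10.3 CPM in Zeb1 ∆M Metformin + LPS. The interaction of Rps2-ps10 was -4.71 ± 0.69 (adjusted p = 0.0149).

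The values of Gapt were set beside markers of eosinophils, which can carry F4/80 and CD11b as macrophages do and so may pass the gate. The summed level of 9 eosinophil markers, Alox15 left out because peritoneal macrophages express it, was 148, 184 and 85.6 CPM in Zeb1 WT LPS, 18.4, 207 and 83.8 CPM in Zeb1 ∆M LPS, 66.7, 41.2 and 54.6 CPM in Zeb1 WT Metformin + LPS and 3.27, 4.60 and 5.07 CPM in Zeb1 ∆M Metformin + LPS. Of the 10 markers on the list Epx was at 0 in all 12 libraries, and of the 6 tested 5 had a negative interaction and 0 were called by edgeR, with a list median of -2.46. At an unadjusted p under 0.05, 4 of the 6 were lower, and by DESeq2 1 was called lower. Ccr3, the eotaxin receptor, was at 35.0 to 81.0 CPM in Zeb1 WT LPS, 16.6 to 25.1 CPM in Zeb1 WT Metformin + LPS, 5.36 to 87.5 CPM in Zeb1 ∆M LPS and 0.245 to 0.979 CPM in Zeb1 ∆M Metformin + LPS. The interaction of Ccr3 was -4.85 ± 1.01 (adjusted p = 0.0578). Siglecf was at 36.2 to 79.0 CPM in Zeb1 WT LPS, 14.4 to 20.7 CPM in Zeb1 WT Metformin + LPS, 6.77 to 94.2 CPM in Zeb1 ∆M LPS and 1.53 to 2.08 CPM in Zeb1 ∆M Metformin + LPS. The interaction of Siglecf was -3.10 ± 0.85 (adjusted p = 0.125). The low value of Zeb1 ∆M LPS replicate 1 appeared in Gapt, Ccr3, Siglecf and the sum alike. Fewer cells of a type and less RNA per cell cannot be told apart in these bulk libraries, and the part of the eosinophil markers in the interaction of Gapt was not tested.

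Neutrophil markers stood beside Retnlg. Their summed level was 2248 to 2817 CPM in Zeb1 WT LPS, 2028 to 2889 CPM in Zeb1 ∆M LPS, 2272 to 2888 CPM in Zeb1 WT Metformin + LPS and 1457 to 2003 CPM in Zeb1 ∆M Metformin + LPS, with Mpo at 0 in all 12 libraries. Abundant members weigh most in this sum. Lcn2 held 4013 to 27354 counts per library against 0 to 1096 for Retnlg, and Hdc is also on the large peritoneal macrophage list. The median genotype difference of the 18 markers tested was -2.26 under LPS and -3.03 under Metformin + LPS, which the sum does not show. Of 18 neutrophil markers tested, 14 had a negative interaction, 1 (Retnlg) was called lower and the median was -0.56 (-1.14 to -0.231 with 1 library left out), which became -0.07 with library totals alone. The part of neutrophil RNA in the values of Retnlg was not tested. B cell markers were summed to 603 to 780 CPM in Zeb1 WT LPS, 222 to 304 CPM in Zeb1 ∆M LPS, 272 to 378 CPM in Zeb1 WT Metformin + LPS and 211 to 224 CPM in Zeb1 ∆M Metformin + LPS, and 0 of 17 were called by edgeR or DESeq2 (4 at an unadjusted p under 0.05).

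Genes of monocytes and small peritoneal macrophages were mostly on the negative side of the interaction. Small peritoneal macrophages are the monocyte-derived population that enters the cavity in inflammation, and large peritoneal macrophages the resident one. Of 19 genes tested, 16 had a negative interaction, 11 at an unadjusted p under 0.05, and 2 were called lower, Clec4a1 and Retnla. Over all genes 52.1% were negative, 7.76% were lower at an unadjusted p under 0.05 and 0.127% were called lower. The list median was -1.20, against -0.03 for all genes, and -0.77 without Zeb1 WT Metformin + LPS replicate 3. With library totals alone it was -0.55 against 0.47 for all genes. The summed level of the list without Lyz2 was 6270, 6831 and 6560 CPM in Zeb1 WT LPS, 4895, 3404 and 4232 CPM in Zeb1 ∆M LPS, 13080, 8350 and 27250 CPM in Zeb1 WT Metformin + LPS and 3202, 3481 and 5238 CPM in Zeb1 ∆M Metformin + LPS. The genotypes did not overlap within either treatment, and Zeb1 WT Metformin + LPS replicate 3 was the highest of the 12 libraries. Lyz2, the lysozyme gene that carries Cre in Zeb1 ∆M, was at 32849 to 43034 CPM in Zeb1 WT LPS, 28988 to 75370.0 CPM in Zeb1 WT Metformin + LPS, 18495 to 31254 CPM in Zeb1 ∆M LPS and 8594 to 15063 CPM in Zeb1 ∆M Metformin + LPS. The interaction of Lyz2 was -1.78 ± 0.52 (adjusted p = 0.142). The part of monocyte-derived cells in the values of Clec4a1 and Retnla was not tested.

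Of 26 identity genes of large peritoneal macrophages 0 were called by edgeR and 4 by DESeq2, which called 344 of 11791 genes in all. An unadjusted p under 0.05 in edgeR was found for 9 of the 26, against 13.9% of all genes. The median of the list was -0.18, and it was 0.09 without Zeb1 WT Metformin + LPS replicate 3 and 0.37 with library totals alone. Their summed level was 43150 to 55510 CPM in Zeb1 WT LPS, 56970 to 57840 CPM in Zeb1 ∆M LPS, 64310 to 96140 CPM in Zeb1 WT Metformin + LPS and 54350 to 75130 CPM in Zeb1 ∆M Metformin + LPS. Gata6, the transcription factor of resident peritoneal macrophages, was at 1.97 to 9.09 CPM in Zeb1 WT LPS, 2.03 to 4.69 CPM in Zeb1 WT Metformin + LPS, 20.6 to 25.1 CPM in Zeb1 ∆M LPS and 2.57 to 2.85 CPM in Zeb1 ∆M Metformin + LPS. The interaction of Gata6 was -2.41 ± 0.64 (adjusted p = 0.119), and one group, Zeb1 ∆M LPS, stood above the others.

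**Figure D4:**
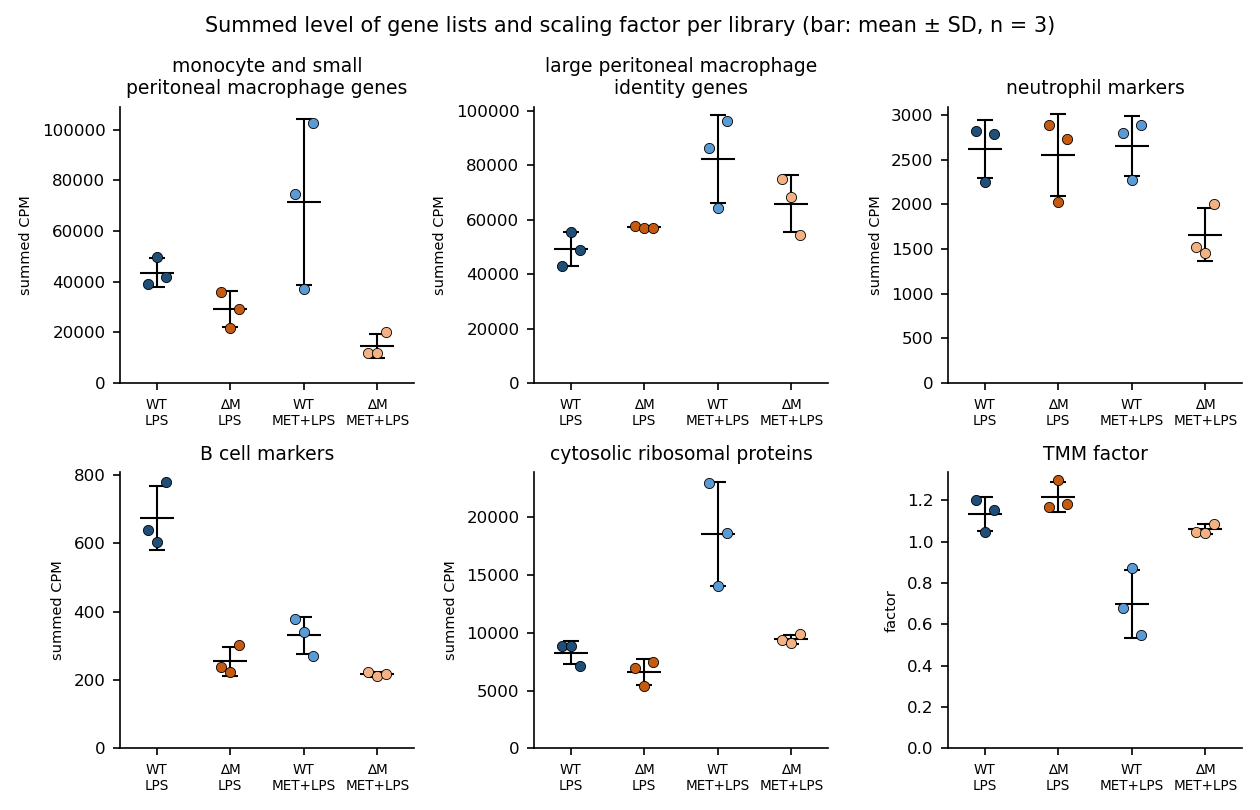
Summed level in CPM (vertical axes, starting at 0) of 5 gene lists and the TMM scaling factor in each library of the 4 groups, with 1 point per library and bars for the mean ± SD of 3 libraries. The monocyte list, here with Lyz2, and the ribosomal protein list are highest in Zeb1 WT Metformin + LPS, the group whose TMM factors are lowest at 0.547 to 0.871.

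The genes that the study names for its Metformin result were examined next. Apart from Il6, the study names them from RNA-seq of these samples, so that their direction is not independent evidence. The study lists Arg1, Mrc1, Il4, Acod1, Tspo, Timp1, Cldn1 and Sod2 among genes that Metformin increased in a signature specific to Zeb1 WT. Wdr3 is listed in the signature specific to Zeb1 ∆M. For Il6 the study reports, by qPCR of peritoneal macrophages, that Metformin lowered its LPS induction in Zeb1 WT and left it unaffected in Zeb1 ∆M. For IL6 protein it reports the like in serum and by intracellular staining. In a bead array of supernatants it reports less IL6 in Zeb1 ∆M under LPS and similar levels in the genotypes after Metformin. None of the 10 named genes tested was called in the interaction by edgeR, 6 passed an unadjusted p under 0.05 and 2 were called by DESeq2, with 8 of 10 interactions negative and a median of -0.83. Over all genes 13.9% passed that unadjusted threshold, 52.1% were negative and DESeq2 called 344 of 11791. Il6, the inflammatory cytokine, had the opposite sign to most of the 10. Il6 was at 99.7, 106 and 91.9 CPM in Zeb1 WT LPS and at 92.1, 88.2 and 147 CPM in Zeb1 WT Metformin + LPS, against 30.4, 52.5 and 38.0 CPM in Zeb1 ∆M LPS and 84.5, 75.7 and 79.3 CPM in Zeb1 ∆M Metformin + LPS. The 3 Zeb1 ∆M LPS libraries were below the other 9, and Il6 rose with Metformin in Zeb1 ∆M by 0.99 (adjusted p = 0.0055) against 0.14 in Zeb1 WT (adjusted p = 0.697). In Zeb1 WT the treatments overlapped, so that the fall reported by qPCR was not seen in these libraries. The interaction of Il6 was 0.85 ± 0.31 (adjusted p = 0.241), and it was called with library totals alone, at 1.39 (adjusted p = 0.0444). The genotype difference of Il6 was -1.30 under LPS (adjusted p = 0.00942) and -0.45 under Metformin + LPS (adjusted p = 0.271).

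Genes of alternative activation and repair in that set lay mostly on the negative side. Timp1, an inhibitor of matrix metalloproteinases, was at 98.4, 89.2 and 96.9 CPM in Zeb1 WT LPS and at 378, 234 and 935 CPM in Zeb1 WT Metformin + LPS, against 80.8, 44.1 and 72.5 CPM in Zeb1 ∆M LPS and 72.0, 86.5 and 58.2 CPM in Zeb1 ∆M Metformin + LPS. Timp1 rose in Zeb1 WT by 2.44 (adjusted p = 0.000577) and changed by 0.13 in Zeb1 ∆M (adjusted p = 0.821), and the interaction of Timp1 was -2.31 ± 0.54 (adjusted p = 0.0829). It was called by DESeq2 (adjusted p = 0.00262) and without Zeb1 WT Metformin + LPS replicate 2 (adjusted p = 0.0285). Mrc1, the mannose receptor, had an interaction of -1.29 ± 0.42 (adjusted p = 0.192), Sod2, the mitochondrial superoxide dismutase, of -1.21 ± 0.40 (adjusted p = 0.194) and Tspo, a protein of the outer mitochondrial membrane, of -1.02 ± 0.37 (adjusted p = 0.23). Each of these 3 genes was lower in Zeb1 ∆M under Metformin + LPS, with adjusted p-values of 0.00894, 0.0223 and 0.0116. Arg1, arginase 1, rose by 1.75 in Zeb1 WT and 1.72 in Zeb1 ∆M, and its interaction was -0.03 ± 0.45 (adjusted p = 0.99). Acod1, which makes itaconate, had an interaction of -0.28 ± 0.39 (adjusted p = 0.814), the ribosome biogenesis gene Wdr3 of 0.30 ± 0.29 (adjusted p = 0.706) and the tight junction gene Cldn1 of -0.63 ± 1.12 (adjusted p = 0.864). Arg1 and Acod1 were higher under Metformin + LPS in both genotypes, with no overlap between the treatments in either.

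Il4, the cytokine of type 2 responses, was read at few counts. Its counts were 72, 72 and 51 for Zeb1 WT LPS, 18, 14 and 9 for Zeb1 WT Metformin + LPS, 3, 72 and 34 for Zeb1 ∆M LPS and 0, 0 and 0 for Zeb1 ∆M Metformin + LPS. In Zeb1 WT each Metformin + LPS library was below every LPS library, whereas the study lists Il4 as increased there. Set at a floor of 3 counts over the group, the Zeb1 ∆M Metformin + LPS group was 38.2-fold lower than the mean of Zeb1 ∆M LPS and 20.8-fold lower than that of Zeb1 WT Metformin + LPS. These folds leave out the spread between libraries, and Zeb1 ∆M LPS replicate 1 itself held 3 counts. The interaction of Il4 at that floor was -3.55, and the test gave an adjusted p of 0.126, which was 0.0145 by DESeq2 and 0.0392 without Zeb1 ∆M LPS replicate 1. Eosinophils and basophils are known sources of Il4, and Il4 shared with the eosinophil sum its lowest values in Zeb1 ∆M Metformin + LPS and the next lowest in Zeb1 ∆M LPS replicate 1. The part of those cells in Il4 was not tested.

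Cytosolic ribosomal proteins, which mTORC1 controls, lay on the negative side as a group without any single call. All 46 tested had a negative interaction, 14 of them at an unadjusted p under 0.05 and 0 called by edgeR or DESeq2, with a median of -0.58. Over all genes 52.1% were negative and 7.76% were lower at an unadjusted p under 0.05. Their summed level was 7114 to 8860 CPM in Zeb1 WT LPS, 5362 to 7452 CPM in Zeb1 ∆M LPS, 14030 to 22960 CPM in Zeb1 WT Metformin + LPS and 9076 to 9858 CPM in Zeb1 ∆M Metformin + LPS. Both genotypes were thus higher under Metformin + LPS, and Zeb1 WT more so. The size of the median and the number of negative members moved with the scaling and in part with 1 library. The median itself stayed below 0, at -0.705 to -0.32 with 1 library left out. With library totals alone the median was -0.06 with 29 of 46 negative, against 0.47 for all genes, and without Zeb1 WT Metformin + LPS replicate 1 it was -0.32 with 40 of 46 negative. Rplp0, a protein of the ribosomal stalk, was at 616 to 907 CPM in Zeb1 WT LPS, 1331 to 2345 CPM in Zeb1 WT Metformin + LPS, 497 to 715 CPM in Zeb1 ∆M LPS and 672 to 737 CPM in Zeb1 ∆M Metformin + LPS. The interaction of Rplp0 was -1.04 ± 0.34 (adjusted p = 0.182).

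Ribosome biogenesis genes of the small-subunit processome list had the other sign, with 42 of 54 positive against 47.9% of all genes, 1 called higher (Polr1a) and a median of 0.26. The median was 0.48 without Zeb1 WT Metformin + LPS replicate 2, and without replicate 3 of that group 20 of 54 were negative in place of 12. Mitochondrial lists, among them complex I as a target of Metformin, held no called member, which does not show that the genotypes were alike. Complex I subunits had 0 of 36 called by edgeR or DESeq2 (1 at an unadjusted p under 0.05) and a median of -0.03, mitochondrial ribosomal proteins 0 of 78 (2 at an unadjusted p under 0.05) and 0.02, and transcripts of the mitochondrial genome 0 of 12 (2 at an unadjusted p under 0.05) and -0.04. AMPK and mTORC1 regulators had 0 of 23 called by either tool (2 at an unadjusted p under 0.05) and a median of 0.05.

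In glycolysis 1 of 24 genes was called, Hk2. At an unadjusted p under 0.05, 3 of the 24 were higher and 9 lower, against 6.17% and 7.76% of all genes. The list median was -0.27 with 16 negative. It was -0.10 without Zeb1 WT Metformin + LPS replicate 3 and 0.26 with library totals alone. Gapdh, a glycolytic enzyme downstream of Hk2, was at 883 to 1026 CPM in Zeb1 WT LPS, 3239.6 to 5168 CPM in Zeb1 WT Metformin + LPS, 519 to 820.4 CPM in Zeb1 ∆M LPS and 1452 to 1730.1 CPM in Zeb1 ∆M Metformin + LPS. The interaction of Gapdh was -0.91 ± 0.32 (adjusted p = 0.215). Hk2 and Gapdh therefore had opposite signs, and neither stands for the list. In sterol synthesis and lipid export 1 of 24 was called, Insig1, with 5 higher and 3 lower at an unadjusted p under 0.05. The median of that list was 0.12 (0.06 to 0.332 with 1 library left out). Of 31 antioxidant and superoxide genes 0 were called by edgeR or DESeq2 (8 at an unadjusted p under 0.05), with a median of -0.16 (-0.272 to -0.03 with 1 library left out).

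Few genes of the inflammatory lists were called. Inflammatory cytokines and mediators had 0 of 22 called by edgeR and 2 by DESeq2 (6 at an unadjusted p under 0.05), with a median of 0.26 (0.13 to 0.591 with 1 library left out). Ptgs2, the inducible cyclooxygenase, was at 1058 to 1453 CPM in Zeb1 WT LPS, 238 to 612 CPM in Zeb1 WT Metformin + LPS, 407 to 631 CPM in Zeb1 ∆M LPS and 452 to 582 CPM in Zeb1 ∆M Metformin + LPS. The interaction of Ptgs2 was 1.61 ± 0.41 (adjusted p = 0.103). Inhba, a subunit of activin, was at 11.1 to 13.4 CPM in Zeb1 WT LPS, 15.5 to 17.8 CPM in Zeb1 WT Metformin + LPS, 1.55 to 3.17 CPM in Zeb1 ∆M LPS and 8.68 to 11.5 CPM in Zeb1 ∆M Metformin + LPS. The interaction of Inhba was 1.44 ± 0.36 (adjusted p = 0.103). Chemokines had 1 of 22 called, Cxcl9, with a median of -0.15 that was 0.13 without Zeb1 WT Metformin + LPS replicate 3, and interferon-stimulated genes 0 of 33 by edgeR and 1 by DESeq2 (5 at an unadjusted p under 0.05), with a median of -0.05 (-0.176 to 0.157 with 1 library left out). Immediate early genes had 0 of 22 called by edgeR and 2 by DESeq2 (5 at an unadjusted p under 0.05), with a median of 0.33 (0.137 to 0.565 with 1 library left out). Klf2, a Krüppel-like factor of that list, was at 14.5 to 131 CPM in Zeb1 WT LPS, 71.0 to 179.8 CPM in Zeb1 WT Metformin + LPS, 216 to 447 CPM in Zeb1 ∆M LPS and 49.4 to 73.4 CPM in Zeb1 ∆M Metformin + LPS. The interaction of Klf2 was -3.55 ± 0.90 (adjusted p = 0.107). With library totals alone 5 genes of the inflammatory list were called higher, against 164 of all 12639 genes, whose median was 0.47 at that scaling. Alternative activation genes had Socs2 called higher and Retnla called lower of 26. At an unadjusted p under 0.05, 4 of the 26 were higher and 5 lower, against 6.17% and 7.76% of all genes. Their median was 0.03 (-0.0966 to 0.181 with 1 library left out, with the other sign in 7 of these fits) and 0.54 with library totals alone.

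Matrix and wound repair genes were not called in 21 tests by edgeR (11 at an unadjusted p under 0.05, 5 by DESeq2), and their median was -0.61 (-0.652 to -0.298 with 1 library left out), which became -0.11 with library totals alone. Spp1, which encodes osteopontin, was at 7.77 to 12.1 CPM in Zeb1 WT LPS, 21.1 to 37.1 CPM in Zeb1 WT Metformin + LPS, 6.07 to 7.82 CPM in Zeb1 ∆M LPS and 5.80 to 6.597 CPM in Zeb1 ∆M Metformin + LPS. The interaction of Spp1 was -1.67 ± 0.34 (adjusted p = 0.0518). Its Zeb1 WT Metformin + LPS libraries lay above the other 9. Myeloid transcription factors had 0 of 17 called by edgeR (6 at an unadjusted p under 0.05, 5 by DESeq2) and a median of -0.58, which was 0.04 without Zeb1 WT Metformin + LPS replicate 3 and -0.07 with library totals alone. The counts of both lists stand against 13.9% of all genes at an unadjusted p under 0.05 and 344 of 11791 by DESeq2.

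**Figure D5:**
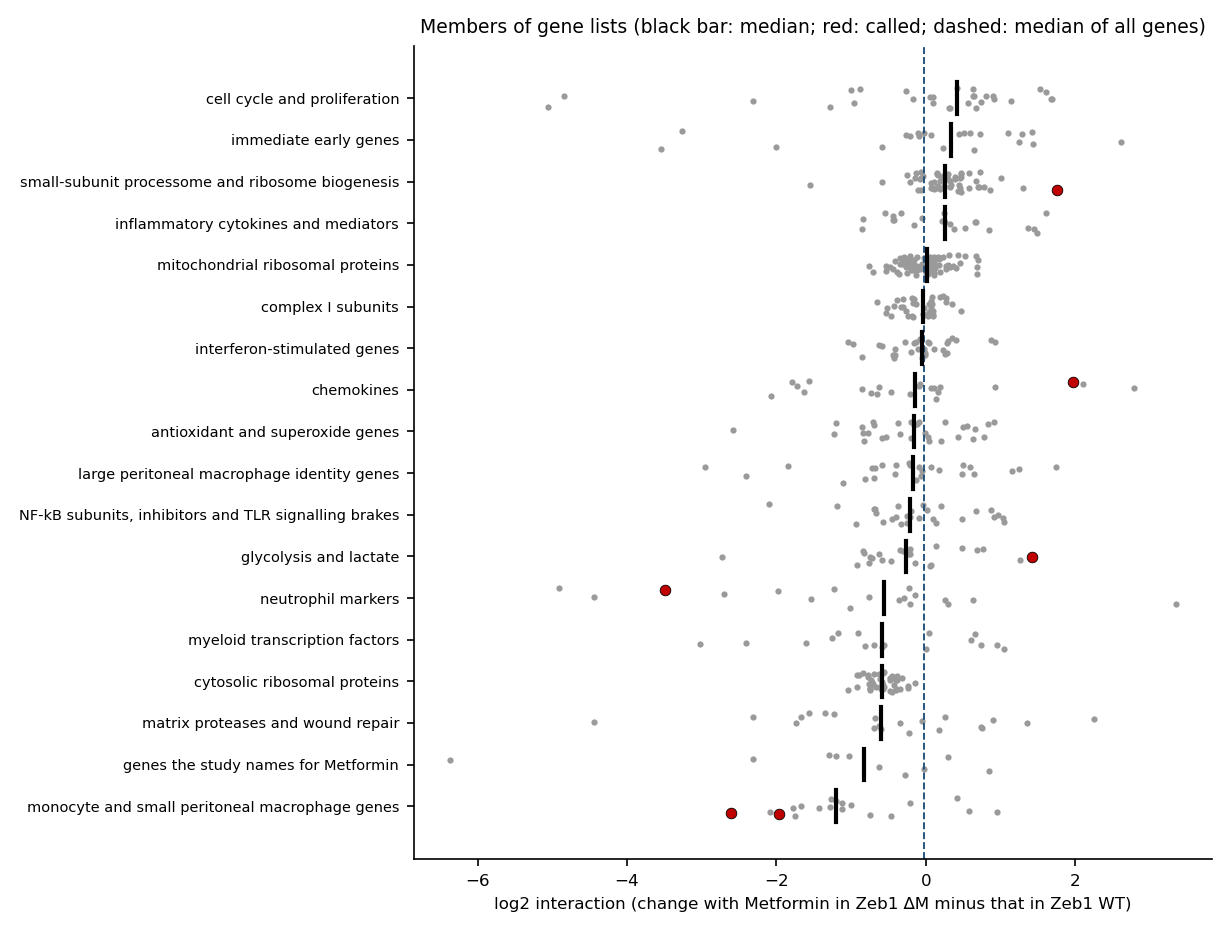
Log2 interaction (horizontal axis, change with Metformin in Zeb1 ∆M minus that in Zeb1 WT) of each tested member of 18 gene lists (vertical axis), with 1 point per gene, red points for called genes and a black bar for the list median. Of the lists drawn, which do not include the eosinophil list with its median of -2.46, that of monocytes lies farthest left with a median of -1.20, all 46 ribosomal proteins lie left of 0, and the dashed line marks the median of all genes at -0.03.

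How far the calls rest on single libraries was examined by leaving out each of the 12 in turn. The 44 calls became 26, 5 and 216 without Zeb1 WT LPS replicates 1, 2 and 3, and 70, 11 and 5 without Zeb1 ∆M LPS replicates 1, 2 and 3. They became 3, 80 and 9 without Zeb1 WT Metformin + LPS replicates 1, 2 and 3, and 4, 6 and 44 without those of Zeb1 ∆M Metformin + LPS. All 44 genes kept the sign of their interaction in each of the 12 fits. S1pr1, Procr and Csrnp1 were called in 12 of 12, Crem in 11 and Rps2-ps10 in 9, and the other 39 genes in 1 to 7. The calls that remained without Zeb1 WT Metformin + LPS replicate 1, and without Zeb1 ∆M Metformin + LPS replicate 1 or 2, were all of higher genes.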

How the data were processed

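Libraries were made by the submitters from Trizol-isolated total RNA with a stranded poly(A) kit. The deposited values are gene counts, which per the labels the authors made with STAR and RSEM on GRCm38 (versions not given in the sources used here) and which were read as whole numbers. Of 55573 genes, 12639 passed filterByExpr and were fitted with edgeR 4.0.16 (R 4.3.3, quasi-likelihood, TMM) over 12 libraries with group as the only factor. Genes with a Benjamini-Hochberg adjusted p under 0.05 were called. Library totals were 14056454 to 30570439 counts. The labels do not say that libraries of a group are separate experiments, so that p-values measure the spread between these libraries.

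The text names Zeb1, Lyz2 and the genes the study names for Metformin, the 15 called genes of smallest p in each direction with a mean log2 CPM of at least 2 and no provisional symbol, and up to 4 members of smallest p from each of 35 gene lists. Members and lists were chosen with earlier results of these data known. Alternatives were median-of-ratios factors, DESeq2 1.42.0, limma-voom (limma 3.58.1), no filter, 18 or 17 libraries, replicate blocks, a log2 threshold, robust fitting, leaving out each library and, added later, length and GC trends removed (loess, span 0.5) and library totals. Scripts were tested on simulated data.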

Additional observations from a re-analysis of the deposited data

Results flagged for a closer look

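Each of the 44 genes called in the interaction is a difference between the genotypes in the same contrast, Metformin + LPS against LPS, tested by the interaction term itself. All values here are log2 interactions (change with Metformin in Zeb1 ∆M minus that in Zeb1 WT), and no explanation of them was tested. Among the higher genes described in the report, the surface receptors and ligands had interactions of 3.19 for S1pr1, 2.60 for Procr, 2.39 for Hbegf and 1.97 for Cxcl9. The genes of transcription and chromatin had interactions of 2.15 for Csrnp1, 2.30 for Crem, 1.88 for Prdm1, 1.97 for Tcf20, 1.50 for Baz2b and 1.76 for Polr1a. The genes of signalling, trafficking and metabolism had interactions of 2.76 for Adcy4, 2.47 for Socs2, 2.01 for Rnf125, 1.87 for Adarb1, 1.72 for Sgk1, 1.62 for Rab11fip1, 1.58 for Arhgap25, 1.42 for Hk2 and 1.17 for Insig1.

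The remaining higher genes fall outside the naming rule and are given with their levels. Bmp2, a bone morphogenetic protein, was at 2.11 to 7.18 CPM in Zeb1 WT LPS, 0.715 to 1.39 CPM in Zeb1 WT Metformin + LPS, 1.52 to 2.84 CPM in Zeb1 ∆M LPS and 4.04 to 6.25 CPM in Zeb1 ∆M Metformin + LPS, an interaction of 3.20. Lig1, a DNA ligase of replication, stood at 2.39 to 3.71 CPM in Zeb1 WT LPS, 1.70 to 1.955 CPM in Zeb1 WT Metformin + LPS, 0.548 to 0.731 CPM in Zeb1 ∆M LPS and 2.09 to 3.89 CPM in Zeb1 ∆M Metformin + LPS, an interaction of 3.07. Amotl2, an angiomotin-like scaffold, lay at 9.38 to 16.5 CPM in Zeb1 WT LPS, 11.1 to 17.1 CPM in Zeb1 WT Metformin + LPS, 3.60 to 5.18 CPM in Zeb1 ∆M LPS and 13.3 to 30.6 CPM in Zeb1 ∆M Metformin + LPS, an interaction of 2.33. Olr1, the receptor for oxidised LDL, was at 76.1 to 189.8 CPM in Zeb1 WT LPS, 87.4 to 118 CPM in Zeb1 WT Metformin + LPS, 40.0 to 63.0 CPM in Zeb1 ∆M LPS and 119 to 272 CPM in Zeb1 ∆M Metformin + LPS, an interaction of 2.32. The lowest libraries of Lig1, Amotl2 and Olr1 were in Zeb1 ∆M LPS and those of Bmp2 in Zeb1 WT Metformin + LPS. Sele, the adhesion molecule E-selectin, stood at 7.86 to 10.8 CPM in Zeb1 WT LPS, 1.11 to 2.33 CPM in Zeb1 WT Metformin + LPS, 4.57 to 5.82 CPM in Zeb1 ∆M LPS and 3.87 to 5.67 CPM in Zeb1 ∆M Metformin + LPS, an interaction of 2.28. Slamf7, a receptor of the SLAM family, lay at 192 to 335 CPM in Zeb1 WT LPS, 192 to 249 CPM in Zeb1 WT Metformin + LPS, 64.5 to 97.5 CPM in Zeb1 ∆M LPS and 213 to 296 CPM in Zeb1 ∆M Metformin + LPS, an interaction of 1.76. Serpinb9, an inhibitor of granzyme B whose family holds close copies, was at 25.998 to 46.9 CPM in Zeb1 WT LPS, 8.23 to 12.1 CPM in Zeb1 WT Metformin + LPS, 7.74 to 10.5 CPM in Zeb1 ∆M LPS and 6.81 to 8.81 CPM in Zeb1 ∆M Metformin + LPS, an interaction of 1.75. Pitpnc1, a phosphatidylinositol transfer protein, stood at 49.5 to 52.9 CPM in Zeb1 WT LPS, 40.1 to 48.1 CPM in Zeb1 WT Metformin + LPS, 25.6 to 41.3 CPM in Zeb1 ∆M LPS and 62.5 to 74.8 CPM in Zeb1 ∆M Metformin + LPS, an interaction of 1.28. Gm4841, a predicted gene, was at 12.2 to 19.4 CPM in Zeb1 WT LPS, 24.6 to 25.2 CPM in Zeb1 WT Metformin + LPS, 9.45 to 12.8 CPM in Zeb1 ∆M LPS and 45.0 to 55.8 CPM in Zeb1 ∆M Metformin + LPS, an interaction of 1.51. 

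On the lower side, the receptors had interactions of -2.14 for Ms4a4a, -1.97 for Clec4a1, -1.64 for Clec4a3, -1.58 for Fcrls and -1.53 for Adora2b, and the secreted proteins of -3.49 for Retnlg, -2.61 for Retnla and -2.38 for Hp. The intracellular proteins had interactions of -5.03 for Gapt, -3.54 for Fkbp5, -2.33 for Ubp1, -1.54 for Fam91a1, -1.43 for Acp2 and -1.23 for Stk40. The pseudogene Rps2-ps10 had an interaction of -4.71, and the predicted gene Gm7336, at 12.7 to 22.2 CPM in Zeb1 WT LPS, 61.5 to 97.1 CPM in Zeb1 WT Metformin + LPS, 12.6 to 18.5 CPM in Zeb1 ∆M LPS and 11.2 to 17.999 CPM in Zeb1 ∆M Metformin + LPS, one of -2.08, both from sequences that may share reads with near-identical copies. Most of these calls were lost when 1 library was left out, and S1pr1, Procr, Csrnp1, Crem and Rps2-ps10 are the 5 genes called in at least 9 of those 12 fits.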

How the results depend on the processing

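All 44 genes kept the sign of their interaction under every alternative run. The number of calls did not hold as well. The 28 higher and 16 lower genes became 164 and 180 with DESeq2 (all 44 among them), 22 and 25 with limma-voom (34 of the 44), and 218 and 355 without the count filter, where 26048 genes were tested, all 44 were among the calls and the median over genes was 0.10. With all 18 libraries in the fit they were 11 and 10 (17 of the 44), and with 17 of them 33 and 34 (37 of the 44). A test against a log2 change of 1 (glmTreat of edgeR) called 0 and 0, with 543 genes at an unadjusted p under 0.05, and the cause was not tested. With library totals alone 164 and 16 were called (35 of the 44), and with length and GC trends removed 42 and 29 (43 of the 44), both chosen after seeing the data. Median-of-ratios factors gave 30 and 15, and the robust fit 30 and 22.

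With 1 library left out, the higher calls ranged from 3 to 50 and the lower calls from 0 to 166, as given by library in the report. These fits hold 1 library fewer, and the cause of the other shifts in counts was not tested. Same-numbered libraries of different groups deviated from their group means with correlations of -0.0845 to 0.0733, so that the numbers were not taken as pairs. A replicate block called 33 higher and 23 lower genes (38 of the 44), and a block within each treatment 23 and 23 (30 of the 44). Depth limits the genes near 0 in Zeb1 ∆M Metformin + LPS, Gapt, Retnlg, Fkbp5, Ccr3, Cldn1 and Il4, whose fold changes rest on 0 to 25 counts per library there, and Lig1, with 12 to 16 counts per library in Zeb1 ∆M LPS.

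The medians of gene lists were less steady than the called genes. Of 35 lists, 16 had a median of the other sign in at least 1 fit that left out a library, and 13 with library totals alone, where the median of all genes was 0.47. Without Zeb1 WT Metformin + LPS replicate 3 the median turned from -0.58 to 0.04 for myeloid transcription factors, from -0.21 to 0.195 for NF-kB genes, from -0.18 to 0.09 for large peritoneal macrophage genes, from -0.15 to 0.13 for chemokines and from -0.11 to 0.09 for apoptosis regulators. That of the ATF4 list turned from 0.16 to -0.15 without Zeb1 ∆M Metformin + LPS replicate 3 and to -0.05 without Zeb1 ∆M LPS replicate 2. With library totals alone the median was 0.26 for glycolysis and 0.18 for heat shock proteins. The cause was not tested.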

Other observations

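Several gene lists beside those of the report bear on growth, stress and minor cell types. Cell cycle and proliferation genes had 0 of 29 called by edgeR or DESeq2 (4 at an unadjusted p under 0.05) and a median interaction of 0.42, with 20 positive. The median was 0.10 without Zeb1 ∆M Metformin + LPS replicate 3. Of 28 NF-kB subunits, inhibitors and brakes of TLR signalling, 0 were called by edgeR and 4 higher by DESeq2 (9 at an unadjusted p under 0.05), with a median of -0.21. That median was -0.07 without Zeb1 WT LPS replicate 1, and it turned to 0.195 without Zeb1 WT Metformin + LPS replicate 3. Rel, an NF-kB subunit, was at 58.9 to 80.1 CPM in Zeb1 WT LPS, 107 to 122 CPM in Zeb1 WT Metformin + LPS, 39.1 to 46.1 CPM in Zeb1 ∆M LPS and 107 to 170.0 CPM in Zeb1 ∆M Metformin + LPS. The interaction of Rel was 1.04 ± 0.27 (adjusted p = 0.111). Il10, an anti-inflammatory cytokine, was at 71.6 to 76.7 CPM in Zeb1 WT LPS, 48.1 to 54.7 CPM in Zeb1 WT Metformin + LPS, 13.7 to 20.1 CPM in Zeb1 ∆M LPS and 19.7 to 33.4 CPM in Zeb1 ∆M Metformin + LPS. The interaction of Il10 was 1.04 ± 0.29 (adjusted p = 0.13). Neither was called.

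Of 21 genes of the ATF4 stress response 0 were called by edgeR and 1 by DESeq2 (4 at an unadjusted p under 0.05), with a median of 0.16. Amino acid transporters had 0 of 19 called by edgeR and 1 by DESeq2 (4 at an unadjusted p under 0.05) and a median of 0.22, and aminoacyl-tRNA synthetases 0 of 37 by either tool (2 at an unadjusted p under 0.05) and a median of -0.08. Heat shock proteins and chaperones had 0 of 23 called by either tool (4 at an unadjusted p under 0.05) and a median of -0.33. Apoptosis regulators had 0 of 21 called by edgeR and 1 by DESeq2 (4 at an unadjusted p under 0.05) and a median of -0.11. Autophagy and lysosome genes had 0 of 32 called by edgeR and 2 by DESeq2 (8 at an unadjusted p under 0.05) and a median of -0.04. Shmt2, a mitochondrial serine hydroxymethyltransferase of the ATF4 list, was at 29.8 to 47.1 CPM in Zeb1 WT LPS, 9.20 to 11.2 CPM in Zeb1 WT Metformin + LPS, 16.99 to 21.3 CPM in Zeb1 ∆M LPS and 10.4 to 13.3 CPM in Zeb1 ∆M Metformin + LPS. The interaction of Shmt2 was 1.26 ± 0.29 (adjusted p = 0.0788). Genes of RNA quality and dissociation stress had 0 of 9 called by either tool (2 at an unadjusted p under 0.05) and a median of 0.07.

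Markers of other cell types were summed over each list. Those of T and NK cells came to 10.6 to 14.8 CPM in Zeb1 WT LPS and to 1.88 to 6.28 CPM in the other groups, and those of mesothelium, fibroblasts and endothelium to 9.42 to 11.1 CPM in Zeb1 WT LPS and to 2.94 to 7.78 CPM in the others. Of these, 0 of 4 and 0 of 2 tested were called by edgeR (2 and 0 at an unadjusted p under 0.05, and 2 and 0 by DESeq2). Dendritic cell markers summed to 116 to 940.3 CPM and had 0 of 9 called by either tool (3 at an unadjusted p under 0.05) and a median of 0.50. Mast cell and basophil markers, with Mcpt8 at 0 in all 12 libraries, summed to 633 to 1998 CPM and had 0 of 6 called by edgeR and 1 by DESeq2 (1 at an unadjusted p under 0.05) and a median of -0.80. Cma1, Cpa3, Kit and Il4 held 0 to 139 counts per library, so that this sum rests on other members. Hdc, a member of the list, is also on the neutrophil and large peritoneal macrophage lists, and the sum does not measure mast cells or basophils.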
